A study of Homo sapiens with 4 samples.

Results

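The 10 SOX transcription factor genes SOX3, SOX4, SOX7, SOX9, SOX11, SOX12, SOX13, SOX15, SOX18 and SOX21 were examined in human embryonic stem cells at the start of blood differentiation, with and without a block of Wnt secretion. They were chosen by gene symbol as the SOX factors of interest besides SOX2 and SOX17, and each was found on 1 row of a table of 58365 genes. All 4 samples came from H1, an established human embryonic stem cell line, collected on day 2 of a culture with activin A and BMP4, the growth factors that push pluripotent cells towards mesoderm. The labels give 40 ng/ml activin A and 50 ng/ml BMP4, whereas the methods of the study assign these concentrations the other way round. In 2 samples the cells received the solvent DMSO, and in the other 2 they also received IWP2, a small molecule that inhibits Porcupine, the enzyme that attaches the lipid that Wnt proteins need for secretion. The dose of IWP2 is not given in the sources used here, and both groups share the activin A and BMP4 treatment. The comparison asks which SOX transcripts depend on secreted Wnt during the first 2 days of differentiation. Nothing in the labels says that the 2 samples of a group came from separate cultures, so the p-values measure only the spread between these samples, and 1 cell line limits all results to H1.

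SOX proteins share a DNA-binding HMG box related to that of the testis-determining factor SRY and act with partner proteins such as POU factors. Members of a subgroup are close in sequence and often overlap in function. SOX2, SOX3 and SOX1 form subgroup B1, which maintains pluripotent and neural progenitor states, and SOX21 belongs to the repressive subgroup B2. SOX4, SOX11 and SOX12 form subgroup C, SOX13 belongs to D, SOX9 to E, SOX15 to G, and SOX7 and SOX18 to F, the subgroup of endothelial and endodermal factors that also holds SOX17. The TCF and LEF factors that carry the Wnt signal to DNA have an HMG box of their own.

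Levels are given as FPKM, fragments per kilobase of transcript scaled to the total fragments of the sample, so genes of different length can be set side by side. The smallest steps of the values corresponded to about 18500000 to 22800000 counted fragments per sample. A difference is the mean log2(FPKM + 1) with IWP2 minus that with DMSO, with the standard error (SE) from a limma fit over all 15980 genes with a mean FPKM of at least 0.5, and a gene was called when its Benjamini-Hochberg adjusted p was below 0.05. This scale understates the change of genes with low values. Where groups are said not to overlap, this is description only. With 2 against 2 samples, full separation has an exact two-sided permutation p of 0.333. Of all tested genes, 13.2% were called, 5.81% as higher and 7.35% as lower with IWP2. The treatment was visible in the Wnt response genes, of which 11 of 13 were lower with IWP2, including SP5, a direct target that fell from 50.1 to 0.371 FPKM (adjusted p = 0.00031), and none was called higher. Among the pluripotency markers 5 of 8 were higher and 1 was lower, whereas all 9 tested mesoderm markers of the 10 in the table, and 5 of 6 tested endoderm markers of 7, were lower. Of the 6 tested amnion or trophoblast markers, 3 were higher and none was lower. In bulk samples, fewer cells of a type and less RNA per cell cannot be told apart, and the part of this shift in cell state in the SOX differences was not tested.

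Of the 10 SOX genes, 9 passed the filter on low values. SOX3 was called higher with IWP2, SOX12 and SOX11 were called lower, 6 were not called, and SOX21 lay below the filter and was not tested. These are 1 of 9 higher and 2 of 9 lower, beside 5.81% and 7.35% of all tested genes, and counts this small do not set the family apart from other genes. The median difference of the 9 was 0.08 on the log2 scale, beside -0.01 for all tested genes.

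Promoter sequences are shown for SOX3, the called gene that rose, and for SOX12, one of the 2 that fell, because these genes moved in opposite directions. They were taken from RefSeq (GRCh38.p14), whose table held entries for 5 of the 10 genes (SOX3, SOX4, SOX12, SOX13 and SOX21). Each run is read 5′ to 3′ on the strand of the gene and ends before the gene body as the deposited table places it. The SOX3 run has 203 bases, because the deposited gene body begins upstream of the RefSeq start. Positions given below count from the RefSeq start, not from the end of the SOX3 run. Capitals mark matches, on either strand, to ATGCAAAT, the octamer bound by POU factors, to CCAAT, the box bound by NF-Y, and to CTTTG, the core that TCF/LEF and SOX proteins can share.
SOX3, chrX:140505117-140505319, minus strand: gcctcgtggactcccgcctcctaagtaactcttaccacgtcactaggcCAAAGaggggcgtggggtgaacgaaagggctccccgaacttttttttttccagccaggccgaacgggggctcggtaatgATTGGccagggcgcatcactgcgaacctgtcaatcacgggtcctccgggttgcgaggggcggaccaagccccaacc
SOX12, chr20:325302-325551, plus strand: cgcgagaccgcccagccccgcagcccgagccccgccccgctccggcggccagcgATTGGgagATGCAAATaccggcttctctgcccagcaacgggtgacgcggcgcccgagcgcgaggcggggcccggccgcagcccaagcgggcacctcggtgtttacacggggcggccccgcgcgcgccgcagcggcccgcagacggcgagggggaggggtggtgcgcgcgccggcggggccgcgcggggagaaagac

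In the 250 bases before the RefSeq start, SOX12 held the octamer once, at position -188, next to a CCAAT box in reverse orientation at -196. The octamer was present in 1.63% of the 35116 RefSeq promoters of this length and in none of the other SOX promoters with an entry. SOX3 held a CCAAT box at -123 and a CTTTG core at -202, both in reverse orientation, motifs found in 32.01% and 42.07% of all promoters. SOX4 held 4 CCAAT boxes and SOX21 held 1, and SOX13 held none of the 3 motifs. GC content was 79.2% for SOX12, 61.6% for SOX3 and 48.8% for SOX4, beside a median of 58% over all promoters. These matches describe letters in a short window and do not show that a factor binds there.

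SOX3 showed the greatest change of the 10 genes. This single-exon gene (ENSG00000134595, chrX:140502985-140505116, GRCh38, minus strand, protein coding) encodes a B1 factor of neural progenitors and the pituitary. Its level was 0.488 and 0.445 FPKM in the DMSO samples and 4.08 and 3.97 FPKM with IWP2. The groups did not overlap, and the samples of each group lay close together. The mean was 8.62-fold higher with IWP2, a difference of 1.78 on the log2(FPKM + 1) scale (SE 0.15, 95% interval 1.39 to 2.16, limma adjusted p = 0.00405). The values corresponded to about 21.5 and 17.5 fragments with DMSO and about 198 and 167 with IWP2. Among all tested genes, 106, SOX3 included, had a difference of at least this size in the same direction. With a pseudocount of 0.1 in place of 1 the difference was 2.86. The call was lost when either IWP2 sample was left out, with adjusted p of 0.0804 and 0.083, and held when either DMSO sample was left out.

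SOX2, the other B1 factor that was measurable, was 0.193 and 0.174 FPKM with DMSO and 35.6 and 36.1 FPKM with IWP2, a difference of 4.96 (SE 0.12, limma adjusted p = 0.00031). SOX3 was thus present at 2.54 times the SOX2 level in DMSO cells, where both were low, and at 0.112 times the SOX2 level with IWP2. SOX1, the remaining B1 gene and a neural marker, reached at most 0.0355 FPKM in any sample. Of the 10 neural markers 1 passed the filter, PAX6, which was not called (adjusted p = 0.078) and had a higher mean with DMSO. HES5, NEUROD1 and NEUROG2 were at 0 FPKM in all 4 samples.

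SOX21, the B2 gene (ENSG00000125285, chr13:94709622-94712399, minus strand, 1 exon), encodes a repressor that counters SOX2-type activators in neural progenitors. It was present at 0.225 and 0.136 FPKM with DMSO and at 0.44 and 0.346 FPKM with IWP2. The IWP2 values were both above the DMSO values, but they rested on about 12.9 and 6.96 fragments with DMSO and about 27.8 and 18.9 with IWP2. With a mean of 0.287 FPKM over the 4 samples it was below the filter, so its 2.18-fold ratio of means carries no test. Its antisense RNA SOX21-AS1 stayed below 0.08 FPKM in every sample.

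**Figure D1:**
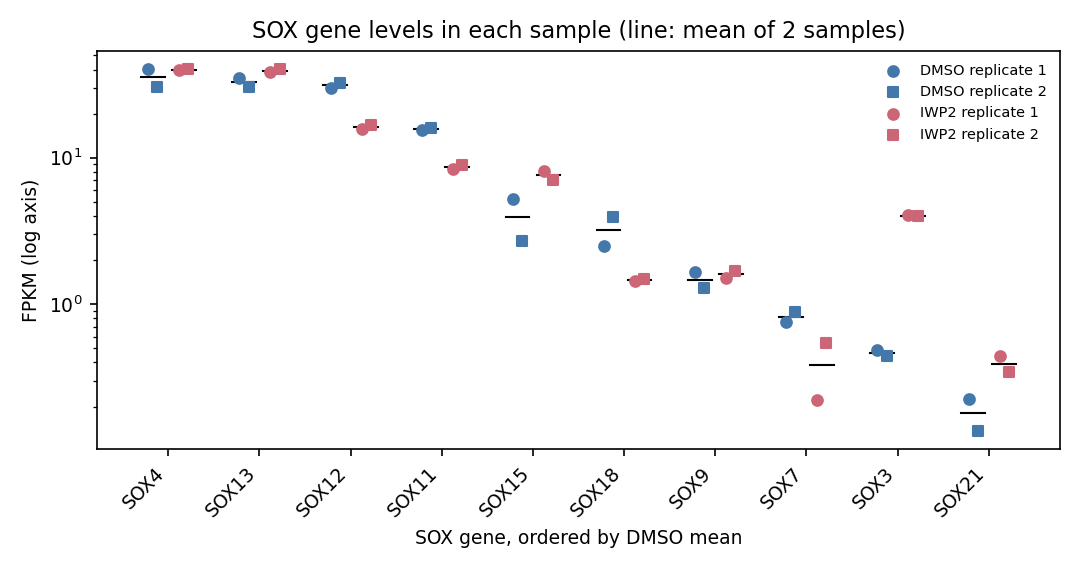
Levels of the 10 SOX genes in each of the 4 samples, as FPKM on a log axis, ordered by the DMSO mean. Circles and squares are replicates 1 and 2, blue is DMSO, red is IWP2, and lines mark the mean of 2 samples. SOX3 lies at 0.488 and 0.445 FPKM with DMSO and at 4.08 and 3.97 FPKM with IWP2, whereas SOX12 and SOX11 lie lower with IWP2 and SOX4 and SOX9 overlap between the groups.

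Subgroup C held SOX4, the gene with the highest mean in both groups, and SOX12 and SOX11, which were called lower. SOX12 (ENSG00000177732, chr20:325595-330224, plus strand, 1 exon), an activator expressed widely in the embryo, was 30.1 and 32.6 FPKM with DMSO and 15.7 and 16.8 FPKM with IWP2. Both IWP2 samples were near 0.5 of the DMSO level, with no overlap. The mean was 1.93-fold lower with IWP2, a difference of -0.91 (SE 0.10, 95% interval -1.15 to -0.66, limma adjusted p = 0.00667). NRSN2-AS1, an antisense RNA that overlaps SOX12, was at most 1.68 FPKM and was not called (adjusted p = 0.288). The library kit named in the labels does not mark strand, so reads of overlapping genes on opposite strands cannot be told apart.

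SOX11 (ENSG00000176887, chr2:5692667-5701385, plus strand, 1 exon), a factor of neural and mesenchymal progenitors, was 15.5 and 16.0 FPKM with DMSO and 8.31 and 8.87 FPKM with IWP2. The mean was 1.83-fold lower with IWP2, a difference of -0.80 (SE 0.10, 95% interval -1.06 to -0.54, limma adjusted p = 0.0107). The groups did not overlap, and the estimated fragment numbers of SOX11 and SOX12 were between 1522 and 2883 in every sample. Leaving out any 1 of the 4 samples ended both calls (limma adjusted p of 0.0505 to 0.104 for SOX12 and 0.0698 to 0.134 for SOX11), and fitting all genes without the filter ended that of SOX11 (adjusted p = 0.0534).

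SOX4 (ENSG00000124766, chr6:21592768-21598619, plus strand, 1 exon), the most abundant of the 10 genes by mean level in both groups, acts in progenitor survival and in the epithelial-mesenchymal transition. In single samples SOX12 exceeded it in DMSO replicate 2 and SOX13 in IWP2 replicate 2. SOX4 was 40.4 and 30.5 FPKM with DMSO and 39.9 and 40.1 FPKM with IWP2. Both IWP2 values lay inside the range of the DMSO values, and the difference was 0.18 (SE 0.15, 95% interval -0.19 to 0.56, limma adjusted p = 0.475). The interval leaves out a fall of the size measured for SOX11 or SOX12. Without DMSO replicate 2 the difference of SOX4 was -0.015, so its sign rested on that sample.

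The levels within subgroup C shifted accordingly. The SOX12 to SOX4 ratio was 0.746 and 1.07 with DMSO and 0.394 and 0.419 with IWP2. The SOX11 to SOX4 ratio was 0.383 and 0.525 with DMSO and 0.208 and 0.221 with IWP2. The SOX12 to SOX11 ratio varied less, at 1.95 and 2.03 with DMSO and 1.89 in both IWP2 samples. For all 3 ratios the exact two-sided permutation test of 2 against 2 samples gave p = 0.333, the smallest value that this design allows, so these ratios have no test that could pass the threshold.

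**Figure D2:**
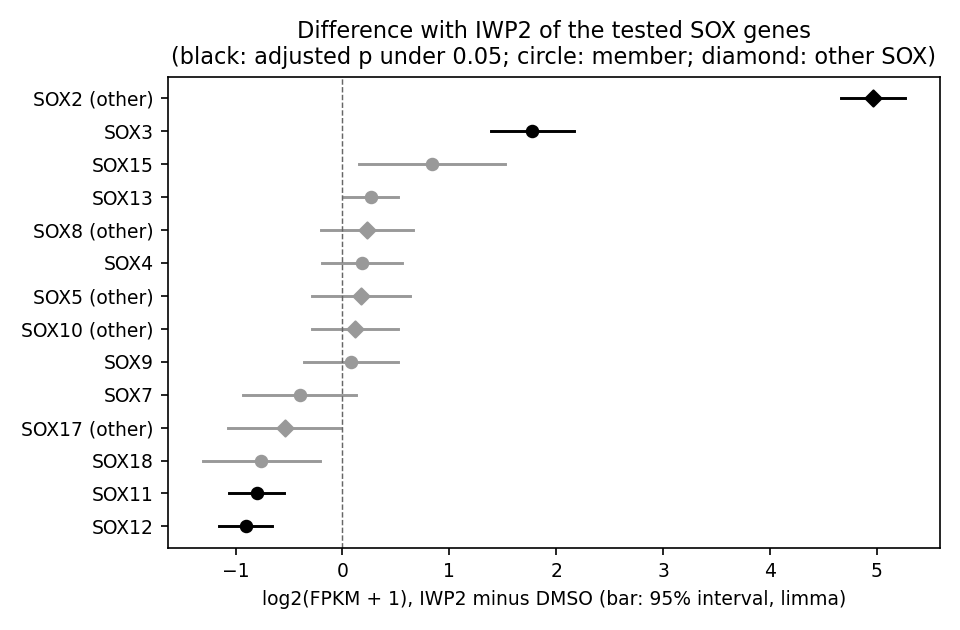
Difference of log2(FPKM + 1), IWP2 minus DMSO, for the 9 tested members (circles) and the 5 tested other SOX genes (diamonds), with 95% intervals from limma. Black marks adjusted p under 0.05: SOX2 at 4.96 and SOX3 at 1.78 lie to the right, SOX11 at -0.80 and SOX12 at -0.91 to the left, and the grey genes were not called.

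SOX13 (ENSG00000143842, chr1:204073115-204127743, plus strand), the D factor and a protein that binds TCF7, was the second most abundant member by mean level. Its level was 35.0 and 30.4 FPKM with DMSO and 38.4 and 40.2 FPKM with IWP2. The groups did not overlap, but the difference of 0.26 (SE 0.10, 95% interval 0.00096 to 0.52) was not called (limma adjusted p = 0.173). It was 0.16 without DMSO replicate 2 and 0.36 without DMSO replicate 1. The gene has 10 annotated transcripts, and the table gives 1 value for all of them. The other D genes were low, with SOX5 between 0.393 and 0.607 FPKM, not called (adjusted p = 0.579), and SOX6 between 0.00925 and 0.193 FPKM, below the filter and lower in both IWP2 samples.

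SOX15 (ENSG00000129194, chr17:7588178-7590170, minus strand), the only G gene, is expressed in pluripotent and germ cells. It was 5.19 and 2.72 FPKM with DMSO and 8.14 and 7.03 FPKM with IWP2. Both IWP2 values exceeded the DMSO values, and the mean was 1.92-fold higher, but the DMSO samples themselves differed widely. The difference of 0.84 (SE 0.27, 95% interval 0.16 to 1.52) was not called (limma adjusted p = 0.113) and was 0.47 without DMSO replicate 2 and 1.20 without DMSO replicate 1. SOX15 overlaps MPDU1 on the opposite strand, which was far more abundant at 33.7 to 40.1 FPKM and was not called (adjusted p = 0.303).

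SOX9 (ENSG00000125398, chr17:72121020-72126420, plus strand), the E factor of cartilage, testis and neural crest, was 1.66 and 1.29 FPKM with DMSO and 1.52 and 1.69 FPKM with IWP2. The groups overlapped, and the difference was 0.08 (SE 0.17, 95% interval -0.36 to 0.52, limma adjusted p = 0.809), turning to -0.03 without DMSO replicate 2. The related E genes SOX8 and SOX10 were present at 0.769 to 1.12 and 1.27 to 1.58 FPKM and were not called (adjusted p of 0.428 and 0.677). The neural crest markers moved both ways, with FOXD3 and NGFR called higher, SNAI2 called lower, and PAX3, PAX7 and TFAP2B below the filter.

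The F genes had lower means with IWP2, and neither was called. SOX18 (ENSG00000203883, chr20:64047582-64049641, minus strand, 2 exons), a factor of vascular and lymphatic endothelium, was 2.50 and 3.95 FPKM with DMSO and 1.43 and 1.49 FPKM with IWP2. The groups did not overlap and the mean was 2.21-fold lower, but the DMSO samples differed from each other, on the log2 scale, by about as much as DMSO replicate 1 differed from the IWP2 samples. The difference of -0.76 (SE 0.21, 95% interval -1.30 to -0.21) had a limma adjusted p of 0.086. About 96.1 and 136 fragments stood behind the DMSO values and about 60.7 and 54.7 behind the IWP2 values.

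SOX7 (ENSG00000171056, chr8:10723768-10730512, minus strand, 2 exons), which acts at the onset of blood and endothelial specification, was 0.751 and 0.88 FPKM with DMSO and 0.223 and 0.542 FPKM with IWP2. The values did not overlap, and about 49.9 and 52.2 fragments stood behind the DMSO values and about 16.3 and 34.3 behind the IWP2 values. The difference was -0.40 (SE 0.21, 95% interval -0.93 to 0.13, limma adjusted p = 0.28), or -1.004 with a pseudocount of 0.1 in place of 1. It was -0.23 without IWP2 replicate 1 and -0.57 without IWP2 replicate 2. The gene overlaps PINX1 on the same strand, which was present at 23.9 to 28.2 FPKM and was not called (adjusted p = 0.919), so the division of shared reads leaves the low SOX7 values uncertain. SOX17, the third F gene and an endoderm factor, was far more abundant at 155 and 104 FPKM with DMSO and 79.7 and 94.9 FPKM with IWP2, and was not called either (difference -0.54, adjusted p = 0.167, or -0.82 without DMSO replicate 2 and -0.26 without DMSO replicate 1). The hemato-endothelial markers summed to 74.1 and 89.1 FPKM with DMSO and to 51.8 and 48.2 FPKM with IWP2. Most of this sum was KDR, at 53.2 and 60.4 FPKM with DMSO and 38.6 and 35.7 FPKM with IWP2. Of the 5 of these 10 markers that were tested, KDR and RUNX1 were called lower, and ETV2, LMO2 and GATA2 were not called. TAL1, CDH5, PECAM1, ERG and FLI1 lay below the filter. The part of these 10 markers in the SOX7 and SOX18 values was not tested.

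The order of the 10 genes by mean level differed between the groups. With DMSO the order was SOX4, SOX13, SOX12, SOX11, SOX15, SOX18, SOX9, SOX7, SOX3 and SOX21. The ranges of SOX4, SOX13 and SOX12 overlapped from neighbour to neighbour, as did those of SOX15 and SOX18, and the other neighbours did not overlap. With IWP2 the order was SOX4, SOX13, SOX12, SOX11, SOX15, SOX3, SOX9, SOX18, SOX21 and SOX7. Here SOX4 and SOX13 overlapped at the top and SOX21 and SOX7 at the bottom, and SOX12 now lay well below SOX13. SOX3 moved from rank 9 to rank 6. The other changes of order were among SOX18, SOX9 and SOX7, which were not called, and SOX21, which was not tested.

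The summed level of the 10 genes was 132 and 119 FPKM with DMSO and 118 and 121 FPKM with IWP2. In the deposited FPKM, the means of 125 ± 9.10 and 120 ± 2.05 FPKM (SD, n = 2) differed by less than the SD of the DMSO samples. The totals over all genes of these DMSO samples were unequal, at 653850 and 616418 FPKM, so this SD includes a difference in scale. The gap between the sums depended on the scaling, with means of 197 and 185 after rescaling to an equal total per sample. That rescaling raises all values, which by itself widens the gap. The comparison with the SD was not repeated on that scale. The composition of the summed FPKM differed, as the plot of shares shows. SOX12 made up 25.1% ± 3.19 of the sum with DMSO and 13.6% ± 0.401 with IWP2, and SOX11 made up 12.6% ± 1.23 and 7.18% ± 0.204 (SD, n = 2). SOX13 took 26.1% ± 0.689 with DMSO and 32.9% ± 0.52 with IWP2, and SOX4 took 28.2% ± 3.53 and 33.4% ± 0.463. The shares are parts of the same sum, so those of other genes rise when SOX12 and SOX11 fall. The levels of SOX13 and SOX4 themselves were not called (limma adjusted p of 0.173 and 0.475). SOX3 took 0.372% ± 0.00252 and 3.37% ± 0.119, and SOX15 took 3.11% ± 1.17 and 6.35% ± 0.761. The 4 leading genes SOX4, SOX13, SOX12 and SOX11 together held 91.9% with DMSO and 87.1% with IWP2.

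**Figure D3:**
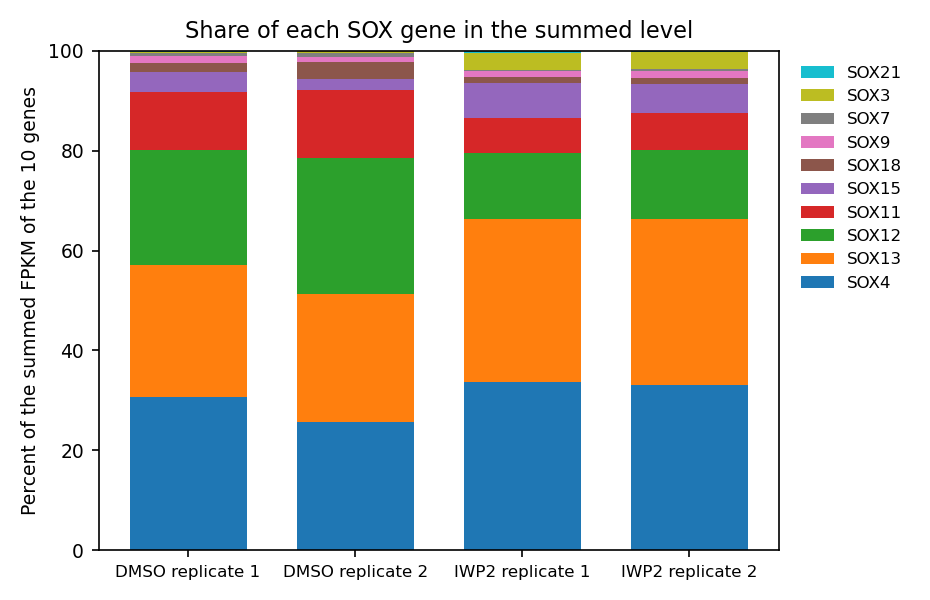
Share of each of the 10 SOX genes in their summed FPKM, in percent, for each of the 4 samples. The SOX12 and SOX11 segments are narrower with IWP2 (SOX12 13.3% and 13.9%, beside 22.9% and 27.4% with DMSO), and the SOX3 segment widens from 0.371% and 0.374% to 3.45% and 3.28%.

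Other SOX genes and SOX partners were counted from fixed lists. Of the 9 other SOX genes, 5 passed the filter, SOX2 was called higher and none was called lower, while SOX1, SOX6, SOX14 and SOX30 stayed below it. Of 16 partner and cofactor genes, 14 were tested, of which 5 were higher and 3 lower with IWP2. This count is not separate from those above. POU5F1 and PRDM14 were also counted among the pluripotency markers, and LEF1 and TCF7 among the Wnt response genes. POU5F1, the POU factor that pairs with SOX2, rose from 751 and 571 to 1854 and 1844 FPKM, and PRDM14, a pluripotency regulator, from 1.34 and 1.64 to 6.98 and 7.42 FPKM (limma adjusted p of 0.00559 and 0.00383). The HMG box factors of the Wnt pathway divided into 2 directions. TCF7L1, mostly a repressor, rose from 7.23 to 17.3 FPKM and TCF7L2 from 10.7 to 25.9 FPKM, while LEF1 fell from 9.52 to 0.191 FPKM and TCF7 from 16.9 to 8.05 FPKM (means of 2 samples, limma adjusted p of 0.00701, 0.0117, 0.000788 and 0.00579). Of the TLE corepressors, TLE1 rose and TLE3 fell (adjusted p of 0.0217 and 0.0151). CTNNB1, which encodes beta-catenin, was not called (adjusted p = 0.255).

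For the 3 called SOX genes, the tested genes with the most similar pattern were found by Euclidean distance between centred log2(FPKM + 1) values over the 4 samples. Nearest to SOX3 were HPGD at 33.4 and 32.4 FPKM with DMSO and 112 FPKM in both IWP2 samples (distance 0.0468), then DOK5 and GALNT3. Nearest to SOX12 were PABPC4L, SCARF2 and PKIG (distances 0.0638 to 0.0654), and nearest to SOX11 were MCOLN3, MAPRE3 and ZBTB8A (0.0169 to 0.0379). With 4 samples in 2 groups such distances reflect mainly the size of the group difference.

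**Figure D4:**
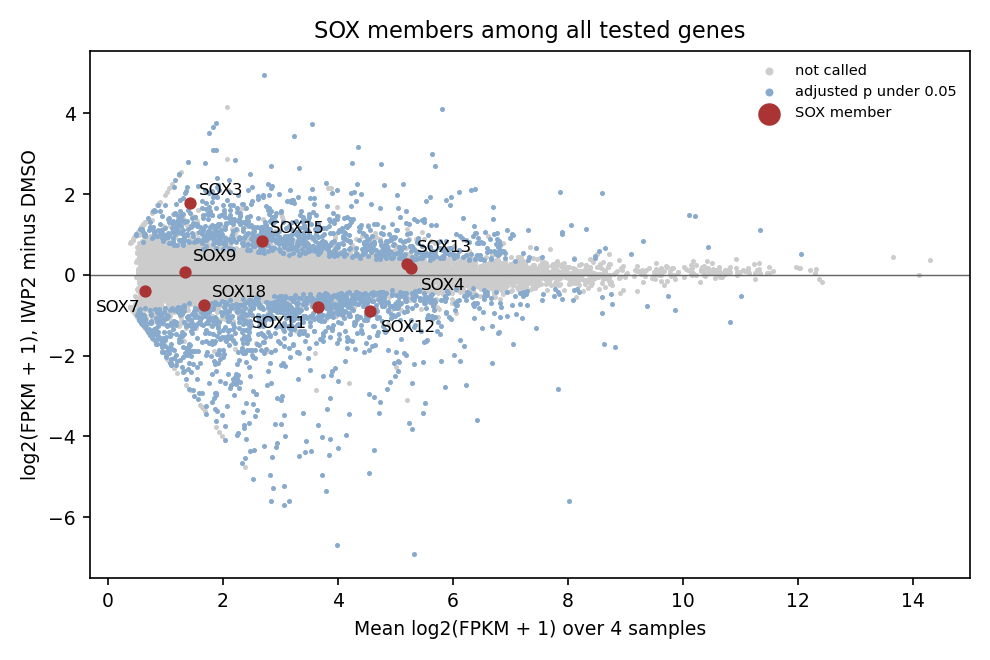
Difference with IWP2 on the log2(FPKM + 1) scale against the mean level over 4 samples for all 15980 tested genes, with the 9 tested SOX members in red. Blue points have adjusted p under 0.05. SOX3 at 1.78 stands among the genes with large increases, with 106 genes at least as high, itself included, whereas SOX11 and SOX12 lie in a denser part of the plot, with 999 and 837 genes at least as low, counted in the same way.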

How the data were processed

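RNA of 4 H1 samples, 2 with DMSO and 2 with IWP2, was sequenced from TruSeq libraries. The authors deposited 1 table of FPKM values per gene and sample with no replicates pooled, and read counts were not used here. The submitters' processing notes name BWA, Bowtie and RSEM without versions and the build hg19, but the loci are those of GRCh38: 55629 of 58365 were identical to GENCODE 29 after 1 was added to the start. The unit is not written in the table. It was taken from the values, whose column sums differ between samples. In genes over 2000 bases with 1 transcript, 76.4% to 79.5% of low values were within 0.1 of a whole number of fragments, which gave the approximate depths and fragment numbers. These cover counting error only.

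Groups were taken from the sample titles, and the table columns without IWP2 were taken as the DMSO samples, numbered as in the table. Differences were fitted with limma 3.58.1 in R 4.3.3 on log2(FPKM + 1) with an intensity trend, two-sided, over 15980 genes with a mean of at least 0.5 FPKM, and p-values were Benjamini-Hochberg adjusted over all of them. The fit was tested on simulated data. Where a symbol had several rows, the row with the highest mean was used. The SOX genes and the gene lists were chosen with earlier results of these data known. Named genes were the 10 members, the genes of fixed lists (other SOX genes, partners, Wnt response genes and cell type markers) and the 3 nearest genes of each of the 3 most changed called members. SOX2-OT and SOX9-AS1, of the list of SOX antisense RNAs, were below the filter. Of the amnion and trophoblast markers 3 of 6 tested were higher and none lower. Alternatives were another pseudocount, no filter or a stricter one, 2 other scalings, no trend, a replicate block and leaving out each sample.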

Additional observations from a re-analysis of the deposited data

How the results depend on the processing

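SOX3, SOX12 and SOX11 kept their direction in all 11 alternatives. Without the filter on low values, the genes called over the whole table fell from 929 higher and 1175 lower to 118 and 263. SOX3 and SOX12 were then still called, each at a limma adjusted p of 0.0496, just under the threshold. SOX11 (-0.80) was no longer called, with a limma adjusted p of 0.0534. Leaving out 1 sample leaves a lone sample that is assumed to vary like the other group: calls then ranged from 18 to 286 higher and from 76 to 410 lower, and SOX members called from 0 to 1 higher and from 0 to 0 lower. With 1 sample left out, the differences ranged from 1.76 to 1.80 for SOX3, from -0.96 to -0.85 for SOX12 and from -0.85 to -0.76 for SOX11. SOX3 was 2.86 with a pseudocount of 0.1 and 2.06 after rescaling to an equal total. Fewer samples enter only the fits with 1 sample left out. SOX4 (-0.015 to 0.38) and SOX9 (-0.030 to 0.19) reversed without DMSO replicate 2, and neither was called in any setting. Values rescaled to an equal total per sample (TPM) gave sums of 197 with DMSO and 185 with IWP2 for the 10 genes. The higher level of both sums is by construction, and it enlarges the gap between the groups as well. With the other scaling, by the median ratio of genes between samples, the sums were 124 and 120, so the size of the gap depends on the scaling. The replicate numbers are shared by title only: the replicate differences of the 2 groups correlated at 0.142 over genes, and with the replicate block 842 genes were higher and 1059 lower, with the calls of SOX3, SOX12 and SOX11 kept. Depth limits SOX21, SOX7 and the DMSO values of SOX3, whose values rest on an estimated 6.96 to 52.2 fragments each. The IWP2 values of SOX18 rest on little more, an estimated 60.7 and 54.7 fragments. SOX9, SOX13 and SOX15 have more than 1 annotated transcript, and their fragments were not estimated.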
